A study of Mus musculus with 12 samples.

Results

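Brush border peptidases and disaccharidases are enzymes anchored in the microvillus membrane of small intestinal enterocytes, with their active sites facing the gut lumen. The set comprised 9 listed genes: Anpep, Enpep, Mep1a, Mep1b, Dpp4 and Ace for peptidases, and Lct, Sis and Treh for disaccharidases. Of these, 7 were found by an identical symbol among the 18138 symbols of the deposited table of unnormalized intensities. Sis was found under 2010204N08Rik, which RefSeq lists as a former name of Sis alone. Lct was found under neither its symbol nor a RefSeq synonym, so its mRNA level was not analysed. The 8 genes had 11 probes, and all 8 passed the detection filter used for the 10967 genes tested.

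Total RNA from 12 ileum tumours of FVB/N mice aged 3 to 4 months was hybridised to Illumina bead arrays, with a separate array for each tumour. All mice carried APCmin, a truncating allele of the tumour suppressor gene Apc that gives intestinal adenomas. Arrays 1 to 6 were labelled FVBN/APCmin and arrays 7 to 12 iPGC-1β/APCmin. The latter name was taken here to mean extra PGC-1β, a transcriptional coactivator of mitochondrial genes. The labels describe neither the construct nor the promoter behind iPGC-1β, and leave unsaid if each tumour is from its own animal, so p-values measure the spread between these samples.

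Protein reaching the ileum has already been cut to oligopeptides by pancreatic proteases. Brush border peptidases then remove residues from either end or within the chain, and the products enter the cell through peptide and amino acid carriers. Disaccharidases split sucrose, lactose and trehalose to monosaccharides. In the intestine these genes are switched on as cells leave the crypt, and factors of the HNF1, CDX and GATA families are known regulators of Sis. Several of the peptidases are also leukocyte or vessel antigens: Anpep is CD13 of myeloid cells, Dpp4 is CD26 of T cells, Enpep is BP-1 of early B cells, and Ace is carried by endothelium.

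The starts of 3 of these genes are shown: Enpep, the gene past the threshold, Anpep, the gene with the largest difference among the 8, and Sis, the gene with a higher mean in iPGC-1β/APCmin that did not pass. Each is the 250 bases before the RefSeq transcript start in GRCm38.p6, on the minus strand in all 3, read 5′ to 3′ along the gene. Capitals mark matches to the motifs listed after them.
Enpep, chr3:129332750-129332999: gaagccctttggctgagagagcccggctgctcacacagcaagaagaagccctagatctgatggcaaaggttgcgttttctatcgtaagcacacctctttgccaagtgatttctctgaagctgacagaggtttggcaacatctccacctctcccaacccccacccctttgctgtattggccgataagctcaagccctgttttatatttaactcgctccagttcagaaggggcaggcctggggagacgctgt
Anpep, chr7:79848211-79848460: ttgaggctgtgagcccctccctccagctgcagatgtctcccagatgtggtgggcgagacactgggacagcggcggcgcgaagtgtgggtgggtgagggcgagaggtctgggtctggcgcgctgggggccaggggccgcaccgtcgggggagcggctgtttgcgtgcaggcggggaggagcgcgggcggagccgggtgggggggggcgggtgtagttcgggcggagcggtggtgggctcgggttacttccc
Sis, chr3:72967864-72968113: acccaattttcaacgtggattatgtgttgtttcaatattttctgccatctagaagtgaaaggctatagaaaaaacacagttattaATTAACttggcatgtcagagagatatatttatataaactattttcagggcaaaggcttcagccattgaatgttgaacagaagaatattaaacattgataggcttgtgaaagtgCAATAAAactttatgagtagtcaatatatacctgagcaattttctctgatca
The motifs searched on both strands were GTTAAT for HNF1, TTTATTG for CDX, AGATAA for GATA, CAAAGTCCA for HNF4 and TCAAGGTCA for the estrogen-related receptors. No match overlapped another. The Sis window held the HNF1 letters starting at base -165 and the CDX letters starting at base -52. The Enpep and Anpep windows held none of the 5 motifs, nor did those of Mep1a and Ace. Of the windows not printed, that of Dpp4 held the GATA letters starting at base -32, that of Treh the HNF4 letters starting at base -71, and that of Lct the GATA letters starting at bases -101 and -90. Among 32851 promoter windows of this length, 6.43% held the HNF1 letters, 4.20% the CDX letters, 9.99% the GATA letters, 0.384% the HNF4 letters and 0.387% the estrogen-related receptor letters. Base composition also differed, with 31.6% G and C in the Sis window, 52.4% in Enpep and 72.8% in Anpep, against a median of 52.4% over all windows. No factor binding was measured, so these matches are a description of the letters.

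Enpep mRNA fell in tumours labelled iPGC-1β/APCmin, and most of the other peptidases and trehalase had lower means without passing the threshold. Sis, the sucrase-isomaltase gene, had a higher mean in the same tumours. In all, 7 of the 8 genes had a lower mean in iPGC-1β/APCmin, as did 51.4% of all genes, and 1 passed (1 of 7 without Sis). The 7 include Ace, at a difference of -0.08 whose sign was not stable. Passing means a limma p, adjusted by Benjamini-Hochberg across the whole table, below 0.05. Over all 10967 genes 3.45% passed in either direction and 1.23% passed as lower. At an unadjusted p below 0.05, 4 of the 8 genes were lower and none higher, against 11.8% of all genes lower. The median log2 difference of the 8 genes was -0.80, beside -0.01 over all genes tested. In bulk tissue, fewer enterocytes and less mRNA per enterocyte cannot be told apart.

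Medians of raw intensity ran from 139.3 to 170.5 over the 12 arrays, and 12858 to 14445 of 25697 probes were detected on each. Ppargc1b, which encodes PGC-1β, had a log2 level of 8.41 ± 0.65 in FVBN/APCmin against 7.86 ± 0.44 in iPGC-1β/APCmin (SD, n = 6 each; limma adjusted p = 0.296), so its probe did not show the genotype and directions follow the labels. Arrays 6 and 7 stood apart from their groups in lymphocyte markers. The mean centred log2 level of 19 T, NK and B cell markers was 1.41 to 1.82 on arrays 1 to 5 and -0.87 on array 6. It was 2.00 on array 7 and -2.21 to -1.27 on arrays 8 to 12. Of 13 enterocyte markers on the array 11 passed the detection filter, and Fabp1 and Fabp2 did not. Those 11 were detected on 12 of 12 arrays. So were all 18 microvillus genes and all 9 pan-epithelial markers on the array.

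**Figure D1:**
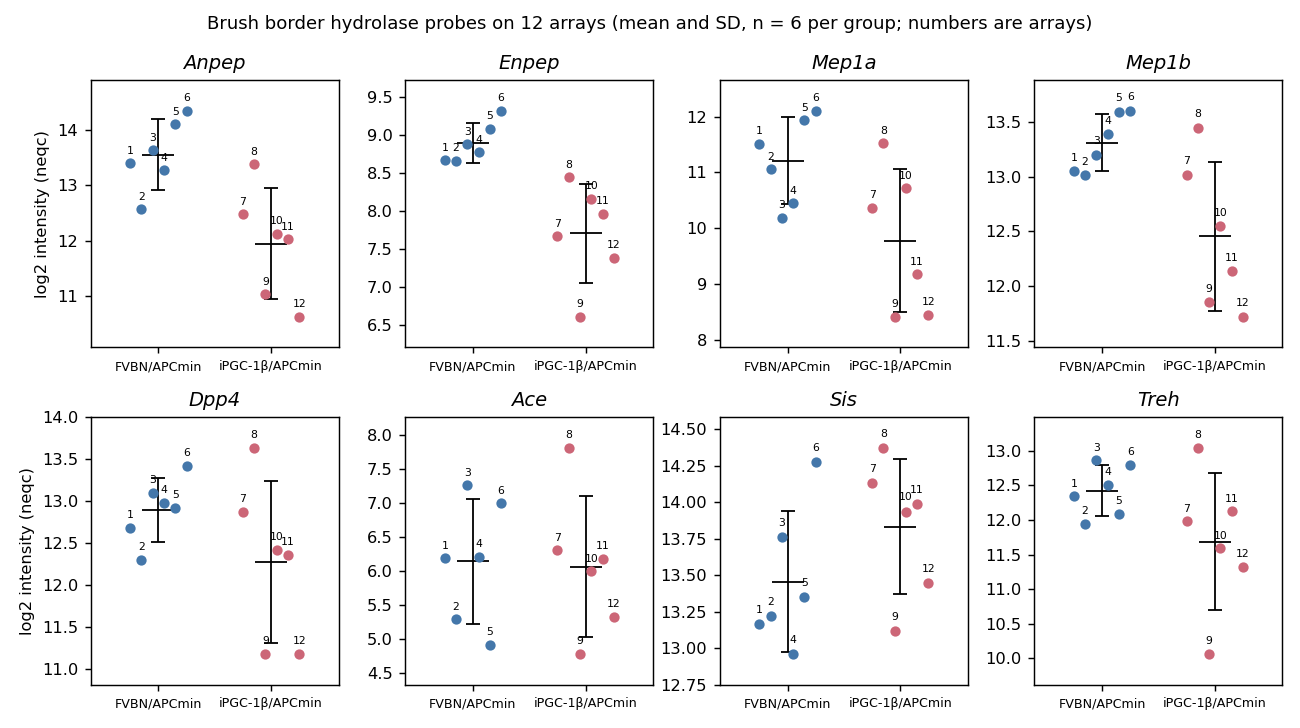
Background-corrected, quantile-normalized log2 intensity (neqc) of the probe used for each of 8 genes, 1 point per array and labelled by array number, with mean and SD of 6 arrays per group. Enpep is the gene whose groups do not overlap. Within iPGC-1β/APCmin, arrays 9 and 12 are low and array 8 is high for the peptidases, and Sis is the gene with the higher iPGC-1β/APCmin mean.

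Levels below are log2 intensities after background correction and quantile normalization, and a difference is the iPGC-1β/APCmin mean less the FVBN/APCmin mean on that scale. A probe's brightness depends on its own sequence, so levels are ordered across arrays for each gene and not between genes. The exact permutation p set beside each difference is two-sided and runs over all 924 relabelings of the 12 arrays, of which the smallest possible value is 0.0022.

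Enpep encodes aminopeptidase A, which removes acidic residues from the amino end of peptides and cleaves angiotensin II. Its log2 level had a lowest, median and highest value of 8.66, 8.83 and 9.32 in FVBN/APCmin against 6.62, 7.82 and 8.45 in iPGC-1β/APCmin. In raw intensity the ranges were 522.7 to 726.6 and 232.5 to 404.7. The groups did not overlap on either scale: array 8 was the highest and array 9 the lowest of the iPGC-1β/APCmin arrays. Enpep fell by 1.19 on the log2 scale (SE 0.27, 95% confidence interval -1.78 to -0.60, limma adjusted p = 0.0344), from 8.90 ± 0.26 to 7.71 ± 0.65 (SD, n = 6 each). The exact permutation p was 0.0022, and FVBN/APCmin was 2.28-fold higher. Among all genes tested, 0.884% had all iPGC-1β/APCmin arrays below all FVBN/APCmin arrays.

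The call for Enpep was close to the threshold. It was lost when any 1 of 7 arrays was left out (FVBN/APCmin 1, 2, 3, 4 or 5, or iPGC-1β/APCmin 11 or 12; limma adjusted p from 0.0542 to 0.0833), while the difference over all 12 such fits lay between -1.34 and -0.97. When the lymphocyte level entered the fit as a covariate, the difference was -1.34 (limma adjusted p = 0.206), and 5 genes of the whole table passed. Leaving out arrays 6 and 7 together, 3 of the 8 genes passed, Enpep, Anpep (-1.55, limma adjusted p = 0.0295) and Mep1b (-0.91, limma adjusted p = 0.0464). The same 3 passed without array 7 alone and without array 8 alone.

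Anpep encodes aminopeptidase N, which removes neutral residues from the amino end of peptides. Its log2 level had a lowest, median and highest value of 12.57, 13.51 and 14.34 in FVBN/APCmin against 10.64, 12.08 and 13.38 in iPGC-1β/APCmin. Of the iPGC-1β/APCmin arrays, 5 lay below the lowest FVBN/APCmin array, and array 8, at 13.38, lay within the FVBN/APCmin range. The difference was -1.60 (SE 0.42, 95% confidence interval -2.51 to -0.70), from 13.55 ± 0.63 to 11.95 ± 0.99 (SD, n = 6 each). This missed the threshold narrowly, at a limma adjusted p of 0.0516, with an exact permutation p of 0.0087. Anpep passed without array 7 (-1.71, limma adjusted p = 0.0194) or array 8 (-1.89, limma adjusted p = 0.0197).

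Mep1a and Mep1b encode the α and β subunits of meprin, a metalloprotease that cuts within peptide chains. The log2 level of Mep1a ran over 10.19, 11.29 and 12.11 (lowest, median, highest) in FVBN/APCmin against 8.41, 9.77 and 11.52 in iPGC-1β/APCmin. The groups overlapped, with arrays 9, 11 and 12 below every FVBN/APCmin array. The difference of Mep1a was -1.43 (SE 0.53, 95% confidence interval -2.58 to -0.29, limma adjusted p = 0.130, exact permutation p = 0.0498).

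The log2 level of Mep1b ran over 13.02, 13.30 and 13.61 in FVBN/APCmin against 11.72, 12.34 and 13.45 in iPGC-1β/APCmin. Arrays 9 to 12 lay below every FVBN/APCmin array, and arrays 7 and 8 lay within their range. The difference of Mep1b was -0.86 (SE 0.28, 95% confidence interval -1.45 to -0.27, limma adjusted p = 0.0877, exact permutation p = 0.0238). The other probes of Mep1b differed by -0.98 and -0.88, so the 3 probes had the same direction.

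Dpp4 encodes dipeptidyl peptidase 4, which releases dipeptides that end in proline or alanine and inactivates incretin hormones. Its log2 level ran over 12.30, 12.95 and 13.42 (lowest, median, highest) in FVBN/APCmin against 11.18, 12.39 and 13.63 in iPGC-1β/APCmin. The latter range enclosed the former, with array 8 above and arrays 9 and 12 below all FVBN/APCmin arrays. The difference was -0.63 (SE 0.37, 95% confidence interval -1.43 to 0.18, limma adjusted p = 0.337, exact permutation p = 0.184).

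Ace encodes angiotensin-converting enzyme, which releases dipeptides from the carboxyl end. Its probe was detected on 5 of 6 arrays in each group and a second probe on 4 of 6, whereas the other 7 genes were detected on all 12. The log2 level ran from 4.91 to 7.26 in FVBN/APCmin (median 6.20) against 4.78 to 7.81 in iPGC-1β/APCmin (median 6.09). The groups overlapped almost wholly, at a difference of -0.08 (95% confidence interval -1.14 to 0.99, limma adjusted p = 0.946) and -0.02 for the second probe. The sign of this difference turned in 4 of the 12 fits that left out an array, so no direction is given for Ace.

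Treh encodes trehalase, which splits the fungal and insect sugar trehalose into glucose. Its log2 level ran over 11.94, 12.42 and 12.87 (lowest, median, highest) in FVBN/APCmin against 10.06, 11.78 and 13.04 in iPGC-1β/APCmin. The iPGC-1β/APCmin range again enclosed the other, from array 9 at the bottom to array 8 at the top. The difference was -0.74 (SE 0.38, 95% confidence interval -1.56 to 0.08, limma adjusted p = 0.267, exact permutation p = 0.110).

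Sis encodes sucrase-isomaltase, which splits sucrose and the branch points of starch. Its log2 level ran over 12.96, 13.28 and 14.28 (lowest, median, highest) in FVBN/APCmin against 13.12, 13.96 and 14.37 in iPGC-1β/APCmin. The groups overlapped, and 4 of the 6 iPGC-1β/APCmin arrays lay above the FVBN/APCmin mean. The difference was 0.38 (SE 0.26, 95% confidence interval -0.18 to 0.93, limma adjusted p = 0.408, exact permutation p = 0.193). In raw intensity the ranges were 7548.2 to 13657.7 and 8501.1 to 24337.

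**Figure D2:**
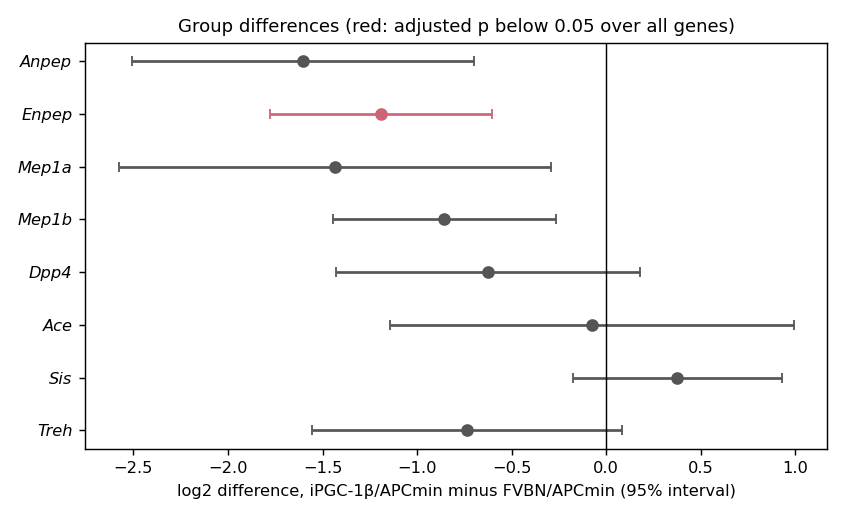
Log2 difference of each gene, iPGC-1β/APCmin minus FVBN/APCmin, with its 95% confidence interval from limma. The intervals of Anpep, Enpep, Mep1a and Mep1b lie below 0, and Enpep alone is past the adjusted threshold over all genes (red). The intervals of Dpp4, Ace, Sis and Treh include 0.

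The level of each gene was also set against that of Sis on the same array. Sis was taken as the reference after its values had been seen, and its own higher mean adds 0.38 to each lower one, so these ratios are a description with no test. A ratio within an array shows unequal change and not which gene moved. As a log2 difference between the group means of the ratio to Sis, Anpep was at -1.98 (SE 0.32), Mep1a at -1.81 (SE 0.43), Enpep at -1.57 (SE 0.27) and Mep1b at -1.23 (SE 0.28). Treh was at -1.11 (SE 0.30), Dpp4 at -1.002 (SE 0.30) and Ace at -0.45 (SE 0.39), and the median of all 10966 other genes was -0.39.

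The ratios of Anpep, Enpep and Mep1b to Sis did not overlap between the groups, the 6 iPGC-1β/APCmin arrays lying below, as they did for 1.5% of all genes relative to Sis. Those of Dpp4 and Treh lay below every FVBN/APCmin array on 5 of 6, that of Mep1a on 4 of 6 and that of Ace on 0 of 6. Since the ratios of Anpep, Enpep and Mep1b did not overlap, arrays 6 and 7, with reversed lymphocyte levels, necessarily lay with their labelled groups. This is no separate result. With the lymphocyte level as a covariate the differences in the ratio were -1.95 for Anpep, -1.60 for Enpep, -1.81 for Mep1a and -1.02 for Mep1b. In the same fit they were -0.95 for Treh, -0.82 for Dpp4 and -0.52 for Ace.

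**Figure D3:**
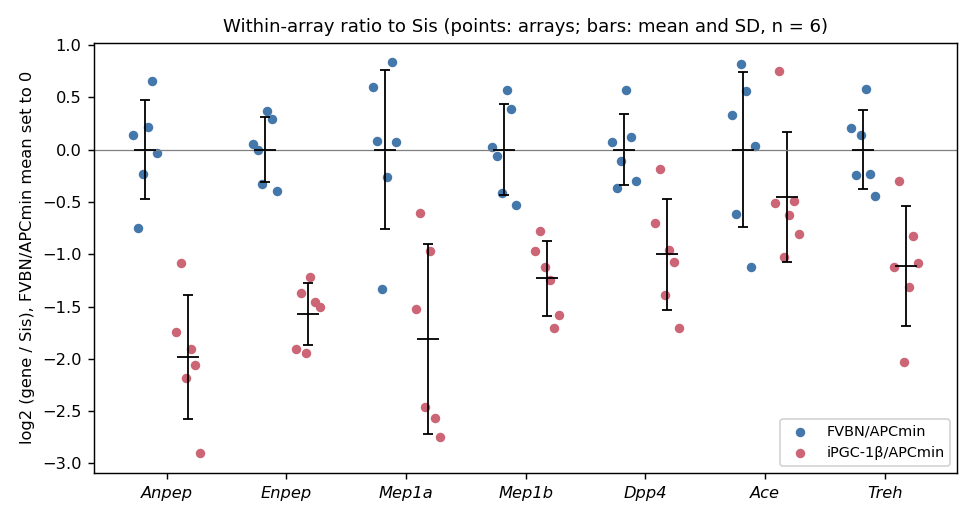
Log2 ratio of each of 7 genes to Sis on the same array, with the FVBN/APCmin mean of each gene set to 0. Points are arrays and bars are mean and SD of 6 arrays. The groups are separate for Anpep, Enpep and Mep1b and overlap for Mep1a, Dpp4, Ace and Treh.

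The genes varied together from tumour to tumour within iPGC-1β/APCmin. Over those 6 arrays Pearson's r between pairs of the 8 genes ran from 0.71 to 0.99 with a median of 0.91 over 28 pairs, Sis and Ace included. Over the 6 FVBN/APCmin arrays it ran from -0.33 to 0.96 with a median of 0.59. Over all 12 arrays the 7 pairs with Sis had a median r of 0.24, and the 15 pairs without Ace and Sis a median of 0.86. Pairs share their arrays and normalization, and these values are a description. The mean centred level of the 8 genes was lowest on arrays 9 (-1.47) and 12 (-1.17) and highest on arrays 6 (1.01) and 8 (0.86). It ran from -0.10 to 1.01 in FVBN/APCmin and from -1.47 to 0.86 in iPGC-1β/APCmin, so tumours of 1 label differed among themselves. The group means of this level differed by -0.77.

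**Figure D4:**
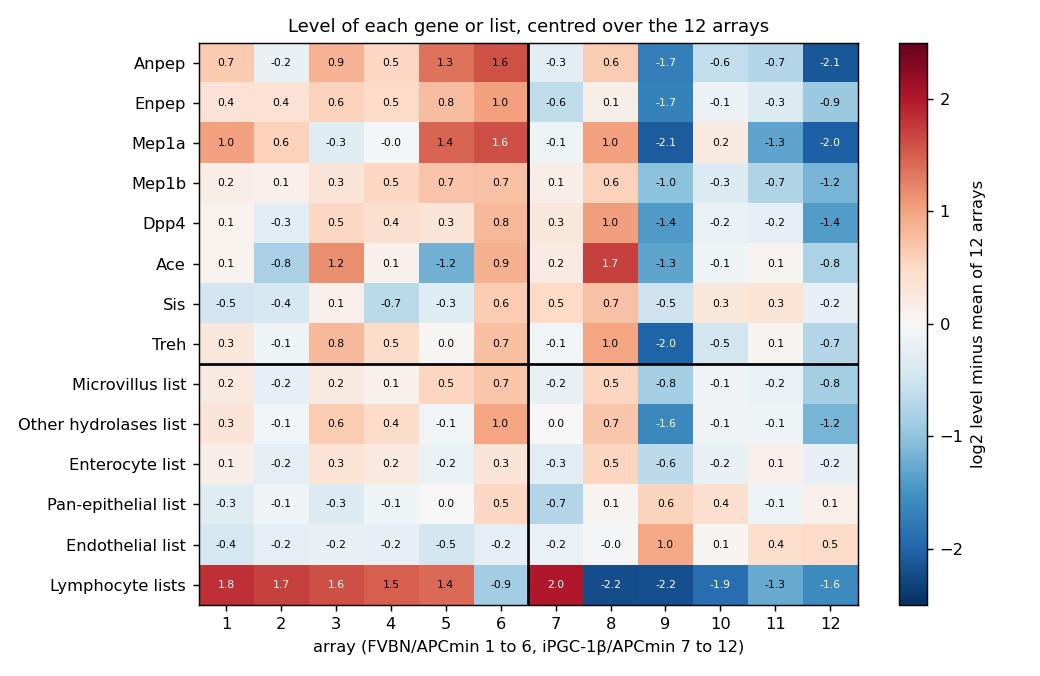
Log2 level of each of the 8 genes, and the mean level of 6 marker lists, on each of the 12 arrays after centring over the arrays (red above, blue below the mean of 12 arrays). The peptidases except Ace, the microvillus list and the other hydrolases share low arrays 9 and 12. Ace is lower on arrays 2 and 5 than on array 12. The lymphocyte level separates arrays 1 to 5 and 7 from the rest.

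Other surface hydrolases of the enterocyte had lower means that did not pass. All 11 genes tested (of 20 listed) had lower means, with a median of -0.67; by limma none passed over all genes and 6 had an unadjusted p below 0.05. The smallest p-values belonged to Dpep1, a membrane dipeptidase (-1.22, limma adjusted p = 0.0528), Xpnpep2, an aminopeptidase for bonds before proline (-1.18, limma adjusted p = 0.0611), and Abp1 (-1.20, limma adjusted p = 0.0707). Abp1 is a file name that RefSeq lists for both Aoc1 and Dbnl, and Dbnl also has a row of its own in the table.

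Carriers of the products were mixed. Of 9 tested, 5 had lower and 4 higher means (median -0.77), and 1 passed. Slc7a9, the light chain of the cystine and basic amino acid exchanger, fell by 1.13 (SE 0.28, limma adjusted p = 0.0462). Slc2a2, the glucose transporter GLUT2, had a difference of 1.79 (limma adjusted p = 0.110).

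Genes of the microvillus itself had lower means in 16 of 18 (median -0.50), and 1 passed. Tmigd1, an adhesion protein of the brush border, fell by 1.44 (SE 0.32, limma adjusted p = 0.0311). Pdzk1, an apical scaffold, and Vil1, the actin-bundling villin, had differences of -1.52 (limma adjusted p = 0.0973) and -0.75 (limma adjusted p = 0.111). Over the 12 arrays the microvillus level correlated with Anpep at r = 0.96, Mep1b at 0.91, Enpep at 0.89 and Sis at 0.39. Within iPGC-1β/APCmin the r for Sis was 0.93.

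Transcription factors of the intestinal epithelium divided evenly, with 8 of 16 lower and 8 higher (median -0.04). By limma none passed over all genes, and at an unadjusted p below 0.05 there were 3 lower and 2 higher. The lower ones with the smallest p-values were Cdx1 (-0.69, limma adjusted p = 0.0644), Isx (-0.83, limma adjusted p = 0.0688) and Hnf4a (-0.66, limma adjusted p = 0.125). Ileal markers had 4 of 5 means lower (median -1.27). Slc51a (Osta in the file), a subunit of the basolateral bile acid exporter, fell by 1.27 (SE 0.29, limma adjusted p = 0.0352), and its groups did not overlap.

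Markers of the cells that could carry these mRNAs moved as follows. Of 11 enterocyte markers 8 had lower means (median -0.27), by limma none passed and 2 had an unadjusted p below 0.05; the list's level ran from -0.23 to 0.33 in FVBN/APCmin against -0.65 to 0.55 in iPGC-1β/APCmin. Pan-epithelial markers had 5 of 9 lower means (by limma none passed, and 1 lower and 1 higher had an unadjusted p below 0.05), at levels of -0.33 to 0.52 and -0.72 to 0.55. With that level as a covariate Enpep and Anpep passed (Anpep -1.58, limma adjusted p = 0.0367). All 10 T and NK cell markers and all 9 B cell markers had lower means, with medians of -2.21 and -3.13. Of the T and NK cell genes 5 passed by limma, with Klrd1 at -1.15, Nkg7 at -1.71, Cd8b1 at -2.12, Cd3e at -2.31 and Lat at -2.65 (adjusted p from 0.0318 to 0.0492), and by limma no B cell marker did while 9 had an unadjusted p below 0.05. Each marker was detected on some array of both groups. Enpep was at 7.67 on array 7, with a lymphocyte level of 2.00, and at 9.32 on array 6, with -0.87. Its groups did not overlap, so array 7 necessarily lay below every FVBN/APCmin array. That placement is no separate result, and the part of lymphocytes in the difference was not tested.

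Of 10 endothelial markers 8 had higher means (median 0.63). The list's level ran from -0.45 to -0.19 in FVBN/APCmin against -0.17 to 0.96 in iPGC-1β/APCmin. These levels were only narrowly apart (-0.185 against -0.168), and each of the 10 genes overlapped between the groups. By limma none of the 10 passed. At an unadjusted p below 0.05, 7 of them were higher, as were 1265 of all 10967 genes. Cdh5 was not detected on any FVBN/APCmin array. Over the 12 arrays the endothelial level and Enpep had an r of -0.87, and for Sis the r was -0.06. Within groups the values were different: over the iPGC-1β/APCmin arrays r was -0.79 for Enpep and -0.90 for Sis, and over the FVBN/APCmin arrays -0.0075 and 0.27. The part of the endothelial and enterocyte levels in the differences was not tested.

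The genes most like each of the 8 over the 12 arrays were taken by Pearson's r after numbered loci and clones were set aside. For Enpep they were Hpgd, which inactivates prostaglandins (r = 0.98), and Rwdd2b (0.95). Hpgd fell by 1.37 (limma adjusted p = 0.0116) and Rwdd2b by 0.94 (limma adjusted p = 0.0393). For Anpep they were Dolpp1 (0.98) and the interleukin-17 receptor gene Il17rc (0.97), for Mep1a Slc7a9 (0.94) and Fbxo25 (0.93), and for Mep1b Abp1 (0.98) and Vil1 (0.97). Mep1a, Mep1b, Ace and Treh each had a brush border gene of another list among these neighbours.

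For Dpp4 the neighbours were the cytochrome P450 gene Cyp4f14 (0.98) and Hectd3 (0.97), and for Treh the MHC class I gene H2-Q2 (0.96) and the neutral amino acid carrier gene Slc6a19 (0.95). For Ace they were the ornithine aminotransferase gene Oat (0.93) and the neutral ceramidase gene Asah2 (0.92). For Sis they were Sucla2, a subunit of the mitochondrial succinyl-CoA ligase (0.95), and Ppapdc2 (0.92), with differences of 0.37 and 0.36 that did not pass. The 5 genes most like the mean of the 8 were Naprt1, Abr, Iqgap2, Abp1 and Vps33b, at r from 0.96 to 0.98.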

How the data were processed

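Total RNA of 12 tumour samples was hybridised to Illumina bead arrays. Per the file headers, the deposited table without normalization gives the mean bead intensity and the detection p-value of 25697 probes. In the second deposited table the intensity values had been brought by the authors to equal quantiles, since values of equal rank differed between arrays by at most 1.05% of their mean. The submitters' processing notes name GenomeStudio, whose settings are not given in the sources used here.

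Processing used limma 3.58.1 in R 4.3.3: neqc with an offset of 16, background from the detection p-values, quantile normalization and log2. A probe was kept if its detection p-value was under 0.05 in 4 or more arrays (14827 probes), and the probe with the highest mean stood for each symbol (10967 genes). Groups of 6 were compared with lmFit and eBayes with an intensity trend, with p-values adjusted by Benjamini-Hochberg across the table and a threshold of 0.05, and with exact permutation tests for single genes. The fit was tested on simulated data. The number of arrays limits the precision. No scan date or chip is given in the labels, so no batch could be tested.

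The 8 genes were named whatever they showed, as were the genes past the threshold, or otherwise up to 3 of smallest p, in each of 15 other lists, and the 2 nearest genes of each member. Slc2a2, Pdzk1 and Olfm4 fall outside it and were picked with their values in view. The members and lists were chosen with earlier results of these data known. Of 196 list entries 174 were on the array, 11 of them through a RefSeq synonym. Promoter sequences come from RefSeq (GRCm38.p6) for 7 of the 8 genes and for Lct. Alternatives were other offsets, background, normalization, filters, probe summaries, variance models, array weights, the authors' table, cell content covariates and left-out arrays.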

Additional observations from a re-analysis of the deposited data

How the results depend on the processing

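Signs of all differences except that of Ace held under every alternative run. The sign of Ace turned without arrays 6 and 7 together (0.048), and over the fits without 1 array it ran from -0.43 to 0.18. Against 378 genes past the threshold and 1 of the 8 brush border genes, the lymphocyte covariate left 5 and 0, the epithelial covariate 942 and 2, array weights 2403 and 3, and leaving out arrays 6 and 7 together 2184 and 3. Without a filter 200 genes passed, and with the stricter filter 2 of the 8 did. By exact permutation 4 of the 8 had an unadjusted p below 0.05. That threshold is looser, and the permutation was not run over all genes. Leaving out 1 array gave 129 to 1821 genes and 0 to 3 of the 8: at most 190 without array 1, 2, 3, 4, 5, 10 or 11, 248 without array 12, 727 without array 6 and 1821 without array 7. Enpep lay between -1.34 and -0.84 over 26 alternatives and Anpep between -1.89 and -1.34. The cause of these shifts was not tested. The ratios to Sis, chosen after seeing the data, kept their signs over normalizations, covariates, array weights and left-out arrays; that of Enpep was -1.21 without background correction and in the authors' table. No paired analysis was possible because the array numbers 1 to 12 are shared by no samples of different groups. The level of Ace, not detected on 1 array of each group, is near background.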

Other observations

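Other cell lineages of the crypt and wall gave values of their own. All 9 Paneth cell markers tested had higher means in iPGC-1β/APCmin (median 0.73), none with an unadjusted p below 0.05 by limma. Of 8 crypt stem cell markers 6 had higher means (median 0.58), by limma none passed and 3 had an unadjusted p below 0.05, among them Sox9 (1.47, limma adjusted p = 0.1003) and the R-spondin receptor gene Lgr5 (1.03, limma adjusted p = 0.183). Olfm4, a marker of the same cells, had a difference of -0.90 (limma adjusted p = 0.236). Goblet cell markers had 4 of 7 means lower (median -0.07), none with an unadjusted p below 0.05 by limma. Smooth muscle and fibroblast markers had 6 of 10 means higher (median 0.18), by limma none past the threshold and 2 with an unadjusted p below 0.05. Macrophage, dendritic cell and neutrophil markers had 5 of 9 means lower (median -0.37), by limma none past the threshold and 1 with an unadjusted p below 0.05.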
